A study of Mus musculus with 60 samples.

Results

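In mouse erythroleukemia cells given an inducer of red cell maturation, 100 cDNA clones showed an early dip in expression from which they recovered, and in part overshot, by 36 h. They were chosen by a rule on the ratios the authors deposited, expression after over before treatment, taken as log2 and averaged over the 4 arrays of a condition and then over 3 chemicals. A clone needed 3 or more values in every condition, a mean below -0.3 at 6 h, and a mean at 36 h above 0.5 times its 6 h mean. Of 22656 clones on the arrays, 14535 had the values, 1477 of these lay below -0.3 at 6 h and 734 met all criteria, and the 100 with the largest difference of 36 h over 6 h are described here. The rule therefore fixed the 6 h and 36 h means, and these are given below as a description only.

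The cells were T-3-Cl-2-0.fl, a mouse erythroleukemia line labelled as highly inducible for differentiation. They were treated with 30 nM TSA (trichostatin A), 5 mM HMBA (hexamethylene bisacetamide) or 1.5% DMSO (dimethyl sulfoxide) for 1, 6, 12, 24 or 36 h, and each of these 15 conditions was set against RNA of the same line before treatment. The labels call the 4 arrays of each condition technical replicates, with Cy5 carrying the treated RNA on replicates 1 and 2, and Cy3 on the other pair. One label field of the DMSO samples prints 15% where the titles print 1.5%. No untreated culture of matching age was labelled, each condition is 1 culture, and the sources used here do not say whether 1 extract of untreated cells served all times. All ratios of a clone may thus share 1 baseline.

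Erythroleukemia cells are red cell precursors transformed by the Friend virus complex and held at an immature stage. HMBA and DMSO are classical inducers that make them leave the cell cycle and accumulate haemoglobin over days, and TSA inhibits histone deacetylases, enzymes that remove acetyl groups from histones. In these cells an early and short loss of some transcripts after an inducer, followed by their return, has long been described for growth regulators such as Myc. No table used here pairs the clones with genes (0 of 22656 identifiers matched), so the members have no known roles here and are grouped by their courses. No erythroid marker could be checked for the same reason.

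Values below are normalized log2 ratios, after over before treatment, computed from the spot intensities, so that 0 is the level before treatment and 1 is a 2-fold rise. The 60 arrays listed between 16550 and 21087 clones each, with a median intensity before treatment between 299 and 1050. The arrays of HMBA at 1 h disagreed with each other: the pair with treated RNA in Cy3 correlated at r = -0.322 across clones, and pairs of opposite dye between -0.538 and 0.341, so no direction is settled there. At 1 h arrays of opposite dye also correlated below 0 with DMSO (-0.298 to -0.237) and with TSA (-0.0828 to -0.0565). DMSO arrays had another assignment of clones to their 2 slides than TSA and HMBA arrays, so that slide layout and DMSO cannot be told apart.

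The difference that ranked the members ran from 3.54 to 0.697 in log2 units of the deposited ratios, with a median of 0.930. The ranking had 1 wide gap, between 2.24 at rank 19 and 1.58 at rank 20. This gap of 0.664 compares with 0.292 for the next widest. The 19 members above it are called steep below; this split was chosen after the values were seen and carries no test. At the lower end there was no gap: the last member stood at -0.63 at 6 h and 0.06 at 36 h, a difference of 0.697, and the first clone left out stood at -0.61 and 0.09, a difference of 0.696.

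**Figure D1:**
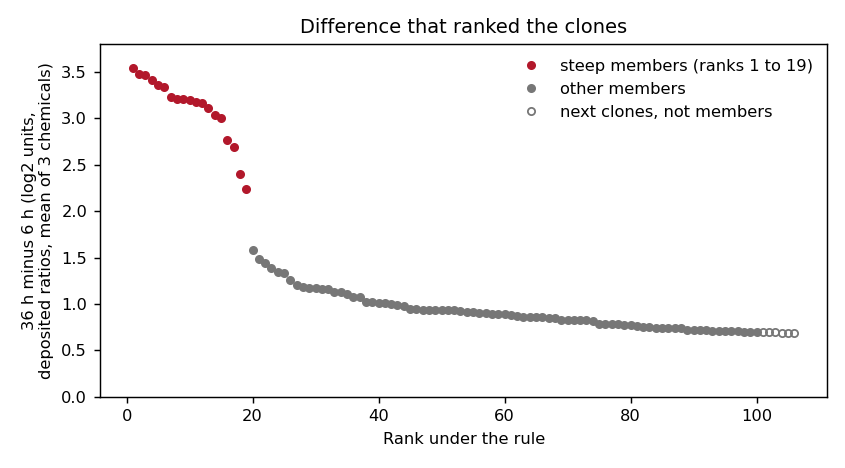
Difference between 36 h and 6 h (log2 units of the deposited ratios, mean of 3 chemicals) on the vertical axis against rank under the rule, for 19 steep members, 81 other members and the clones ranked next. The steep members lie between 3.54 and 2.24, and from 1.58 downwards the values run without a break past the 100th clone at 0.697.

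Averaged over the 3 chemicals, the members had medians of -0.18, -0.81, -0.56, -0.14 and 0.12 at the 5 times in order, while the medians of all 14582 clones tested lay between -0.01 and 0.01 at every time. The chemicals differed in depth of the dip and in how far the clones came back. With TSA the member medians were -0.19, -0.40, -0.09, 0.66 and 0.94 from 1 h to 36 h, a shallow dip followed by an overshoot. With HMBA they were -0.24, -1.33, -0.90, -0.33 and 0.14, the deepest dip of the 3 and a return to about the starting level. With DMSO they were -0.25, -0.65, -0.53, -0.36 and -0.29, a dip that had not closed by 36 h.

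At 6 h, 24 members lay at least 1 log2 unit below their starting level with TSA, 65 with HMBA and 38 with DMSO. The shares of all clones were 1.05%, 1.94% and 0.816%. At 36 h, 48 members lay at least 1 unit above their starting level with TSA, 21 with HMBA and 16 with DMSO. Here the shares of all clones were 1.85%, 2.34% and 0.418%. Steep members made up 18 of these with TSA, 18 with HMBA and 15 with DMSO. Among the 81 other members the counts were 30, 3 and 1, so with HMBA and DMSO such rises lay mostly in the steep members. The lowest of the 3 chemicals at 6 h was HMBA for 61 members, DMSO for 21 and TSA for 18. Over all clones the shares were 37.7%, 28.2% and 34.1%. The highest at 36 h was TSA for 79, HMBA for 14 and DMSO for 7, against 34.4%, 37.4% and 28.2%. The lowest of the 5 times was 6 h for 60 members with TSA, 79 with HMBA and 52 with DMSO. Among all clones it was so for 19.0%, 21.0% and 16.4%. With DMSO another 28 members were lowest at 12 h, against 14.1% of all clones.

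The rule averaged the chemicals, so a member need not dip and return with each of them. A mean below -0.3 at 6 h was seen in 58 members with TSA, 94 with HMBA and 89 with DMSO. Of all 14582 clones it was seen in 2183, 2887 and 1675. Of these dipping members, 55 of 58 had come back past 0.5 times the dip by 36 h with TSA, 85 of 94 with HMBA and 48 of 89 with DMSO. Among all dipping clones it was 1170 of 2183, 1874 of 2887 and 775 of 1675, so the DMSO share of the members was near the background. The dipping members stood above 0 at 36 h in 44 cases with TSA, 59 with HMBA and 24 with DMSO. Of all dipping clones 594, 909 and 275 did. Only 17 members dipped and came back with all 3 chemicals, 56 did so with 2, 25 with 1 and 2 members with none. The shares of all clones were 0.37%, 3.47%, 18.1% and 78.0% in that order. The name of the module, a dip that recovers or overshoots, thus fits its mean course better than it fits the course with each chemical.

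**Figure D2:**
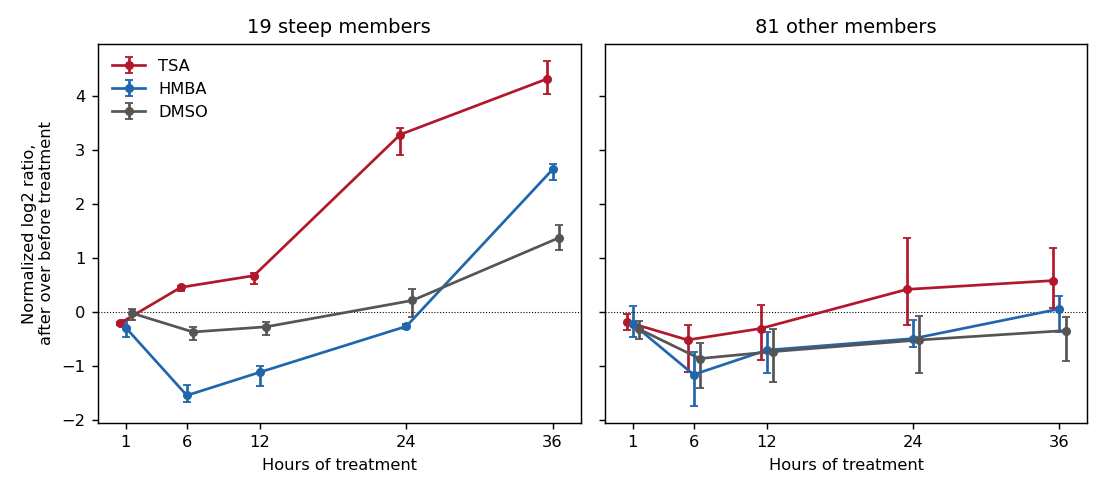
Normalized log2 ratio, after over before treatment, against hours of treatment for 19 steep members (left) and 81 other members (right). Points are medians and bars run from the lower to the upper quartile over members, coloured by chemical. With TSA the steep members are at 0.46 at 6 h and 4.31 at 36 h, while with HMBA they are at -1.54 and 2.64. The other members are at -0.34 with DMSO at 36 h.

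The arrays of 1, 12 and 24 h were not used by the rule, so the level at these times could be tested. If 1 extract of untreated cells served all times, these ratios share the baseline that entered the 6 h ratio. The tests against before treatment are then not independent of the choice, and the size of this effect was not tested. A model fitted with limma to the 15 condition values of all 14582 clones, with time and chemical as terms, compared each time with before treatment, averaged over chemicals. The spread of a clone was estimated from all 15 conditions. The 6 h and 36 h values that chose the members thus enter these p-values. A clone was called where its Benjamini-Hochberg adjusted p, taken over the whole table of clones, was below 0.05. At 12 h limma called 37 of the 100 members lower and 0 higher, against 7.02% of all clones called lower and 6.54% called higher. At an unadjusted p under 0.05 the limma fit had 57 members lower and 0 higher, against 28.4% of all clones in either direction. The 37 had a median of -0.99, from -1.79 to -0.45, and 36 of them were among the 81 other members. Of all members, 95 had an estimate below 0 at 12 h, against 51.1% of all clones. Without the 6 h and 36 h conditions in the fit, limma called 26 members at 12 h, all of them lower. Over all clones it called 1302 of 14582 in either direction. The count was 15 members and 761 of 14582 clones without the DMSO conditions, and 13 and 480 without the HMBA conditions. Without replicate 4 it was 24 of 93 members tested and 1119 of 13191 clones.

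By 24 h the calls went in both directions, and their number was near the background. Lower than before treatment were 9 members, with a median of -0.71, against 3.76% of all clones, and higher were 2, against 4.45% of all clones. Of the 9 lower ones, 8 were also called lower at 12 h. Of the 2 higher ones, 1 was a steep member with an estimate of 1.55, and the other one had 0.79. The 24 h estimate of the other 17 steep members above 0 did not pass the threshold, although the median of the 19 was 1.03. The 11 calls at 24 h were near the 8.21% of all clones called in either direction. They became 24 without TSA, 4 without HMBA and 2 without DMSO. Of 14582 clones these fits called 1014, 505 and 232, so the counts without HMBA and without DMSO were near the background. Without replicate 1 there were calls for 7 of 91 members and 799 of 12802 clones. Without replicate 3 there were calls for 6 of 86 members and 803 of 12686 clones.

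At 1 h, 2 members were called lower, with estimates of -1.31 and -1.11, against 0.123% of all clones. Both were also called lower at 12 h. Leaving out HMBA at 1 h gave a count of 1, with 15 of 14582 clones called. Leaving out replicate 3 also gave 1, with 21 of 12686 clones called. Without either the DMSO or the HMBA conditions, 0 members and 0 clones were called.

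**Figure D3:**
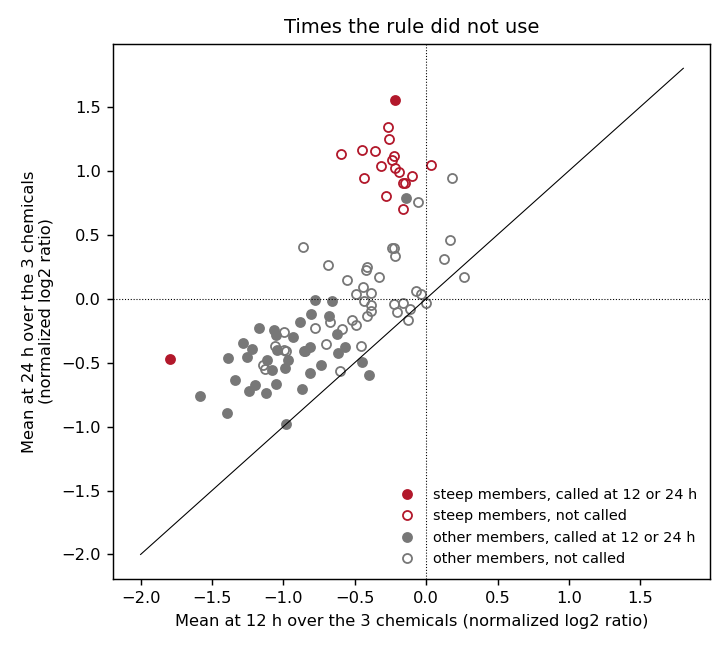
Mean at 24 h against mean at 12 h over the 3 chemicals (normalized log2 ratios) for each member. Filled points passed the limma test at 12 h or 24 h, and the line marks equal values. Of the 100 members, 95 lie above the line, and 18 of the 19 steep ones lie above 0 at 24 h, with the other one at -1.79 at 12 h and -0.47 at 24 h.

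The return between 12 h and 24 h was read directly. The members' estimate of 24 h minus 12 h had a median of 0.58, against 0.01 over all clones, and was above 0 for 95 of 100. No single member passed: limma called 0 of the 100 members and 0% of all clones, with the lowest adjusted p among members at 0.875. At an unadjusted p under 0.05 the limma fit had 28 members, all of them higher at 24 h, against 797 clones or 5.47% of all. The median 95% interval of a member's 24 h minus 12 h estimate reached 0.73 to either side. By chemical, 24 h was above 12 h in 93 members with TSA, 75 with HMBA and 76 with DMSO. Of all 14582 clones it was so in 7744, 7495 and 6950. The members' median differences were 1.12, 0.46 and 0.22 in that order of chemicals.

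The split between the chemicals at 24 h was also seen in counts. With TSA 74 members stood above 0 at 24 h, against 52.1% of all clones. With HMBA 14 members did, against 52.6%, and with DMSO 31, against 47.2%. At least 1 log2 unit above the starting level at 24 h were 47 members with TSA, 0 with HMBA and 2 with DMSO. The shares of all clones were 1.44%, 1.65% and 1.93%, so the HMBA and DMSO counts were near the background. At 12 h, 54 members lay below 0 with TSA, against 53.4% of all clones, so the TSA count was near the background. Below 0 with HMBA at 12 h were 94 members, against 49.98% of all clones, and with DMSO 93, against 50.6%.

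The level with each chemical could be compared freely only at 1, 12 and 24 h, since the rule used the values of 6 h and 36 h. TSA differs from HMBA and DMSO in being a hydroxamic acid that acts at nanomolar dose. Only 1 dose of each chemical was used, and the doses differ. All 3 pairs of chemicals were compared by limma without the 6 h and 36 h conditions, with 4 residual degrees of freedom and p-values adjusted over all clones within each pair. Between TSA and HMBA limma called 1 of the 100 members, higher with TSA, against 0.00686% of all clones, which is that clone alone. Its difference was 2.72 log2 units (limma adjusted p = 0.0162), it was no steep member, and the fit includes the HMBA 1 h condition, whose direction is not settled.

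Over these 3 times the members' TSA minus HMBA difference had a median of 0.54, against 0.00 over all clones, and was above 0 for 80 of 100, against 50.5% of all clones. At an unadjusted p under 0.05 the limma fit had 38 members, 34 of them higher with TSA, against 14.3% of all clones in either direction. Between TSA and DMSO limma called 0 members and 0% of all clones, with a lowest adjusted p among members of 0.0795. The median difference of TSA over DMSO was 0.64, against 0.00 over all clones, and 76 members were above 0, against 50.7% of all clones. At an unadjusted p under 0.05 there were 51 members by limma, 43 of them higher with TSA, against 10.6% of all clones.

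In the average level over 1, 12 and 24 h, limma told HMBA and DMSO apart in no member. Without 6 h and 36 h the limma test called 0 of 100 members and 0% of all clones for HMBA minus DMSO, with 0.426 as the lowest adjusted p among members. At an unadjusted p under 0.05 there were 12 members by limma, 8 of them higher with HMBA, against 10.1% of all clones. The members' median HMBA minus DMSO difference was -0.01, and the 95% interval of a single member reached 0.68 to either side at the median. The fit compares 1 average level per chemical, so a difference at 1 time only, or of opposite sign at different times, can be missed. Neither these nor average differences within that interval could be resolved. The missing calls do not show that the chemicals act alike.

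Over all 5 times the differences between chemicals contain the 6 h and 36 h values that chose the members, so the counts of that fit are a description from which nothing is read. They were 15 members higher and 1 lower with TSA than with HMBA, where limma called 1.15% and 3.39% of all clones. With TSA 23 members were higher and 2 lower than with DMSO, where limma called 1.41% and 0.946% of all clones. Of the 15, 13 were steep members, of the 23 none was, and 2 clones were in both lists. For HMBA minus DMSO the 5-time limma fit called 0 members and 0.946% of all clones, with 25 members and 17% of all clones at an unadjusted p under 0.05. Leaving out 1 h gave 36 calls between TSA and HMBA and 48 between TSA and DMSO, against 856 and 631 of 14582 clones. Leaving out any 1 of the later times gave 1 call between TSA and HMBA, against 30 to 130 clones. Between TSA and DMSO it gave 0 to 2 calls, against 0 to 23 clones. Without replicate 1, 3 or 4 the TSA and HMBA count was 8, 7 and 9, against 355, 342 and 466 clones. These last fits tested 12686 to 13191 clones.

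The steep members were nearly 1 pattern. With TSA their medians were -0.21, 0.46, 0.68, 3.29 and 4.31 from 1 h to 36 h, a 19.9-fold level at the end and no dip at 6 h. With HMBA they were -0.29, -1.54, -1.11, -0.26 and 2.64, so that a level of 0.344 times the starting level at 6 h was followed by a 6.24-fold level at 36 h. With DMSO they were -0.02, -0.37, -0.27, 0.22 and 1.37, a 2.59-fold level at 36 h. In 18 of the 19, TSA at 6 h was above 0, between 0.12 and 0.62, while HMBA at 6 h was between -1.87 and -1.08 in the same clones. For these 18 the label of an early dip does not hold with TSA.

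The courses of these 18 over the 15 conditions correlated with each other at r between 0.959 and 0.998, with a median of 0.987 over 153 pairs. Among the 81 other members the median was 0.492, from -0.522 to 0.997. These correlations describe likeness only: the clones share arrays and were chosen for alike 6 h and 36 h means, and several clones can stand for 1 gene. The 19 steep clones came from 8 clone plates and 13 plate rows, with up to 5 in 1 row and 7 directly beside another steep member. For the 13 steep members with at least 4 clones in their plate row that are not members, the median at 24 h was 1.09 for the members and 0.00021 for these neighbours, and 12 of the 13 lay above theirs. The remaining steep members had too few such neighbours and were not compared, so a part of plate position in them was not tested.

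**Figure D4:**
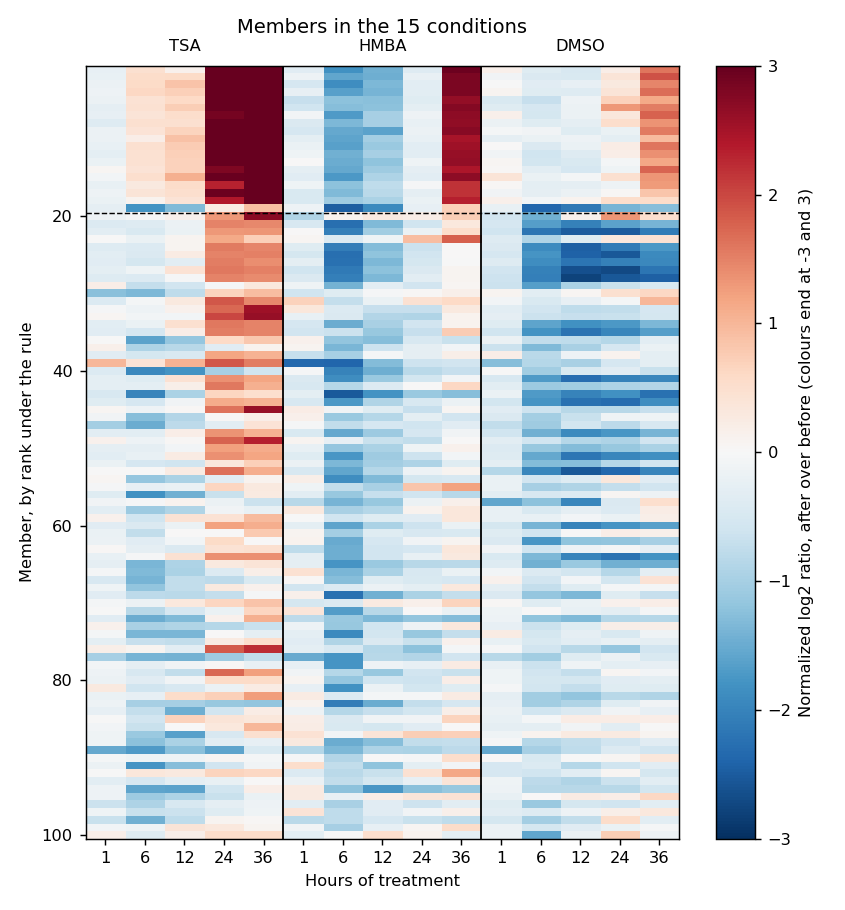
Normalized log2 ratio of the 100 members, from rank 1 at the top to rank 100, in the 15 conditions, in colour (blue lower and red higher than before treatment, colours end at -3 and 3). The dashed line marks the gap after rank 19. Above it TSA is red from 6 h in 18 clones and HMBA turns from blue to red at 36 h. Below it are bands of clones that stay blue with DMSO to 36 h while TSA turns red at 24 h.

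Clone H3121B01 had the highest rank. With TSA it read 0.55, 0.53, 0.34 and 0.46 on the 4 arrays at 6 h, and 4.83, 4.48, 4.58 and 4.37 at 36 h. With HMBA the 4 values were -1.80, -1.57, -1.71 and -2.14 at 6 h and 2.61, 2.54, 2.86 and 3.74 at 36 h. With DMSO they were -0.30, -0.21, -0.28 and -0.67 at 6 h and 1.81, 1.79, 1.32 and 1.55 at 36 h. All arrays of a condition thus had 1 sign at both times, and TSA at 6 h did not overlap HMBA or DMSO.

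At 24 h, H3121B01 averaged 3.59 ± 0.31 with TSA, -0.39 ± 0.08 with HMBA and 0.19 ± 0.20 with DMSO (SD over 4 arrays of 1 RNA). At 12 h the TSA arrays disagreed, with -2.09 on replicate 1 against 0.37, 1.09 and 1.13 on the other arrays. Its estimate over the chemicals was -0.59 at 12 h (SE 0.47, limma adjusted p = 0.439) and 1.13 at 24 h (SE 0.47, limma adjusted p = 0.179), and neither passed. Over 1, 12 and 24 h its TSA minus HMBA difference was 1.88 (SE 0.66, limma adjusted p = 0.287), which did not pass either. After 36 h of TSA the median intensity of this clone was 63382, against 2665 before treatment. That is near the highest values on these arrays, where intensities may no longer rise in proportion, so its ratio there may be too low. In the same condition 5 members had a spot above 60000 after treatment.

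Clone H3125H11, ranked next, followed the same course. With TSA it read 0.51, 0.77, 0.63 and 0.30 at 6 h and 5.01, 4.80, 3.97 and 4.31 at 36 h. With HMBA it read -1.39, -1.50, -1.68 and -1.63 at 6 h and 2.50, 2.72, 2.77 and 3.31 at 36 h. With DMSO it read -0.14, -0.19, -0.63 and -0.81 at 6 h and 2.04, 2.05, 1.67 and 1.84 at 36 h. The chemicals kept the order TSA, DMSO, HMBA at 6 h and TSA, HMBA, DMSO at 36 h, without overlap between arrays at either time.

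In H3125H11 the TSA minus HMBA difference over 1, 12 and 24 h was 1.83 (SE 0.57, limma adjusted p = 0.259), and that of TSA over DMSO was 1.28 (SE 0.57, limma adjusted p = 0.480). Neither passed. Its means at 24 h were 3.31 ± 0.58 with TSA, -0.22 ± 0.14 with HMBA and 0.40 ± 0.41 with DMSO (SD over 4 arrays). The 24 h estimate of H3125H11 over chemicals was 1.16 (SE 0.39, limma adjusted p = 0.0912).

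Another course was that of the 23 members called higher with TSA than with DMSO in the 5-time fit. They were picked for their TSA and DMSO difference over these same 5 times, which include those of the rule. The gap between TSA and DMSO and the likeness of their courses thus come in part from the choice. Their levels are a description. With TSA their medians were -0.31, -0.37, 0.17, 1.38 and 1.26 from 1 h to 36 h. With HMBA they were -0.43, -1.58, -1.05, -0.53 and 0.08. With DMSO they were -0.50, -1.65, -2.02, -1.95 and -1.65, and all 23 lay below 0 with DMSO at each of the 5 times. In these clones the return by 36 h was seen with TSA and HMBA, and a loss lasting to 36 h with DMSO, at 0.319 times the starting level. The 23 came from 19 plates, and their courses correlated at a median r of 0.942 (0.504 to 0.997, 253 pairs over 15 conditions on shared arrays).

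The 17 members that dipped and came back with every chemical were picked by their 6 h and 36 h values with each. Alike medians at these times follow from that choice and are a description. At 6 h their medians were -0.92 with TSA, -0.98 with HMBA and -0.72 with DMSO. At 36 h they were 0.12, 0.01 and -0.19 in the same order, near the starting level. At times that did not choose them, the medians were -0.74, -0.50 and -0.37 at 12 h and -0.10, -0.45 and -0.46 at 24 h. Over all clones tested, 0.37% dipped and came back with all 3 chemicals by the same criteria. The 37 members called lower at 12 h stood at medians of 0.02 with TSA, -0.58 with HMBA and -0.66 with DMSO at 24 h.

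Clone H4046D12, ranked 19, had the lowest mean at 12 h and is the steep member whose course differed. With TSA it read -1.63, -1.82, -2.05 and -1.68 at 6 h and -1.58, -1.30, -1.05 and -1.35 at 12 h. With HMBA it read -2.81, -2.40, -2.35 and -2.35 at 6 h and -1.87, -2.57, -1.20 and -1.95 at 12 h. With DMSO it read -2.72, -2.24, -2.05 and -2.51 at 6 h and -2.47, -2.33, -1.92 and -1.90 at 12 h. Every array of the 3 chemicals lay more than 1 unit below the starting level at both times.

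At 12 h, the time it was named for, H4046D12 was lower than before treatment by limma, with an estimate of -1.79 (SE 0.26, 95% interval -2.35 to -1.23, adjusted p = 0.00146). Since the 12 h value picked the clone, this p-value is a description. At 24 h the estimate was -0.47 (limma adjusted p = 0.331), with means of 0.24 ± 0.35 for TSA, -0.26 ± 0.17 for HMBA and -1.40 ± 0.29 for DMSO (SD over 4 arrays). At 36 h the means were 0.91 ± 0.65, 0.72 ± 0.13 and -1.29 ± 0.31 in that order. It overshot with TSA and HMBA on every array at 36 h and stayed low on every array with DMSO.

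Clone H4072B01, ranked 43, came back above its starting level with TSA only. Its 12 h arrays read -0.84, -1.02, -1.04 and -0.87 with TSA. They read -2.02, -2.51, -0.45 and -2.18 with HMBA, where replicate 3 stood apart, and -2.50, -2.04, -1.81 and -1.68 with DMSO. The limma estimate at 12 h was -1.58 (SE 0.35, adjusted p = 0.0135). This clone too was picked by its 12 h value, so that p-value is a description. The limma estimate at 24 h was -0.76 (SE 0.35, adjusted p = 0.238).

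At 24 h, H4072B01 averaged 0.65 ± 0.42 with TSA, -1.11 ± 0.10 with HMBA and -1.82 ± 0.33 with DMSO. At 36 h the TSA arrays ranged from -0.66 to 1.85, so a return with TSA held on all 4 arrays at 24 h and on 3 of 4 at 36 h. The means at 36 h were -1.28 ± 0.10 with HMBA and -2.24 ± 0.18 with DMSO (SD over 4 arrays).

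**Figure D5:**
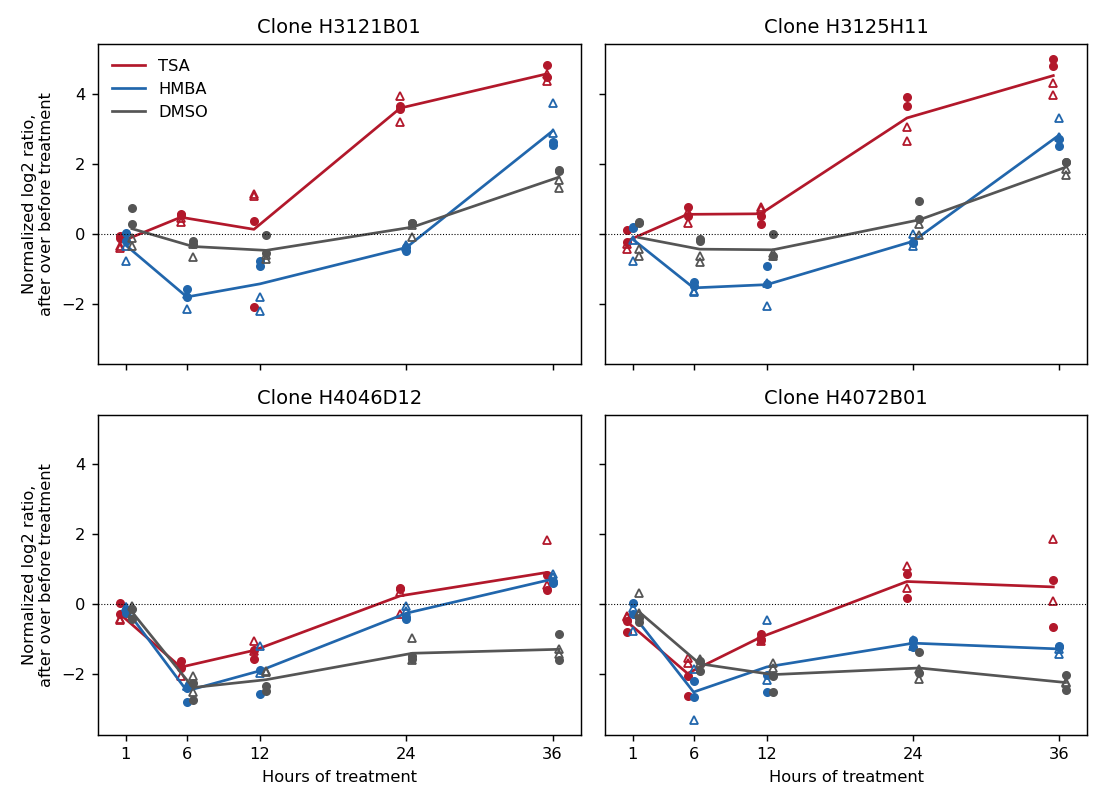
Normalized log2 ratio, after over before treatment, of clones H3121B01, H3125H11, H4046D12 and H4072B01 against hours of treatment. Each point is 1 array, filled circles with treated RNA in Cy5 and open triangles in Cy3, and lines join the condition means by chemical. The upper pair reaches 4.57 and 4.52 with TSA at 36 h, and in the lower pair DMSO stays at -1.29 and -2.24.

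The single arrays behind these means were read for all members. All listed arrays of a condition lay below 0 at 6 h for 56 members with TSA, 86 with HMBA and 82 with DMSO, against 16.4%, 16.2% and 14.7% of all clones in the same order. At 12 h, which the rule did not use, the numbers were 36, 70 and 75, against 17.5%, 12.2% and 13.9% of all clones. At 24 h all listed arrays lay above 0 for 59 members with TSA, 4 with HMBA and 8 with DMSO, against 12.0%, 15.3% and 11.6%. At 1 h the dye orientations differed in sign for 25 members with TSA, 42 with HMBA and 31 with DMSO. The share over all clones was not computed, so nothing about the members is read from these counts.

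Choosing the clones by 1 dye orientation and reading them on the other gave the size of the rule's own pull. A set of 100 chosen on the Cy5 arrays had a median 36 h minus 6 h difference of 0.704 on the Cy3 arrays and 1.12 on the Cy5 arrays, and 85 of 100 were above 0 on Cy3. A set chosen on the Cy3 arrays had 0.871 on the Cy5 arrays and 1.00 on the Cy3 arrays, with 94 above 0 on Cy5. Over all clones 53.5% were above 0 on Cy3 and 52% on Cy5. The sets shared 38 clones with each other, and 51 and 66 of theirs were members. Both orientations measure the same RNA, so this bears on the arrays and not on repeated cultures.

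The members were spread over the plates and were not dim. They came from 71 plates and 91 plate rows. For the 90 members with at least 4 neighbours in their plate row, the median at 12 h was -0.60 for members and -0.0035 for neighbours, and 84 lay below theirs. The median intensity before treatment was 1285 for members and 890 for all clones, with 66 members above the median of all clones. Of the members 14 lay below the lower quartile of all clones' intensities and 26 above the upper quartile. The steep members had intensities between 506 and 2347. Slides held them unevenly: 17 of the 19 lay mostly on slide 1 with TSA and HMBA, and 18 of the 19 on slide 2 with DMSO. The part of slide position in the DMSO values was not tested.

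At 1, 12 and 24 h and between 24 h and 12 h, 60 of the 100 members passed no test, against 83.8% of all clones. The 95% interval of a member at a single time reached 0.52 to either side at the median, against 0.26 for all clones.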

How the data were processed

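Each array comprised 2 slides, for which the authors deposited spot intensity values on a linear scale, 1 before and 1 after treatment, per the file headers. The authors also deposited 1 linear ratio per clone and array, after over before treatment. Scanning, spot filtering and the centring of the ratio are not given in the sources used here. Its median lay between 0.924 and 1.07 per array, and its log2 correlated with the values computed here at r between 0.899 and 0.996, which settled its direction.

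Members were found on the deposited ratios. Intensities were corrected with limma's normexp (offset 50) and normalized by loess (span 0.3) within each slide, using R 4.3.3 and limma 3.58.1. The files hold no background column, so a clone was tested if 3 of 4 arrays listed it in every condition, which left 14582 clones and all 100 members. Each condition gave 1 value, the average of its Cy5 and Cy3 array means. limma's fit had time and chemical as terms and 8 residual degrees of freedom. It was also run on simulated data, and no result given here rests on that run. Chemicals were compared without 6 h and 36 h as well, since the rule used those times; the fit over 5 times had been planned as the main one. The p-values rest on how far the 15 condition values scatter around this additive fit, not on repeated cultures, and leave out the spread of the untreated RNA. The number of conditions and arrays limits the precision.

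The members, lists and tests were chosen with earlier results of these data known. Lists of erythroid and other genes, the markers of cell types and sequences could not be used because no clone is named (reference table of assembly GRCm38.p6). The clones named were the 2 highest ranked and the 2 with the lowest mean at 12 h. Alternatives changed the normalization, background, scaling, listing filter, plate rows, arrays, chemicals and times. All tests without the HMBA 1 h condition were added after seeing the data, except those at 1 h.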

Additional observations from a re-analysis of the deposited data

Results flagged for a closer look

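Single arrays far from the other 3 of their condition were looked for in 75 groups of 4 arrays, and 5 were found; chance gives about 1 in 20 groups. The median of the members with TSA at 1 h was -0.15 on replicate 1, above the other 3 arrays, which lay between -0.23 and -0.22. H3121B01 read -0.10 on replicate 4 with DMSO at 24 h, against 0.25 to 0.32 on the others. H3125H11 read -0.014 on replicate 2 with DMSO at 12 h, against -0.63 to -0.56. H4046D12 read -2.81 on replicate 1 with HMBA at 6 h, against -2.40 to -2.35, and -0.28 on replicate 3 with TSA at 24 h, against 0.34 to 0.46.

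Over all 5 times the level differed between TSA and HMBA by limma in 16 members, against 4.53% of all clones. H3125H11 was among them with a difference of 1.86. Between TSA and DMSO 25 members differed, against 2.35% of all clones. These fits contain the 6 h and 36 h values that chose the members. Without these values 1 and 0 members were called, against 0.00686% and 0% of all clones. H3125H11 was then not called between TSA and HMBA (limma adjusted p = 0.259).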

How the results depend on the processing

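No test between times or chemicals rests on more than 15 condition values of 1 culture each, and the before-treatment RNA may be shared. No paired analysis was possible because a condition's 4 arrays are technical repeats of the same RNA, averaged to 1 value, so their numbers pair no samples. Spots near the top of the scale may understate a rise.

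Without 1 replicate at a time, members called numbered 1 to 2 at 1 h, 24 to 34 at 12 h and 6 to 10 at 24 h. Over all clones these fits called 21 to 32, 1119 to 1675 and 799 to 925, of 12475 to 13191 tested. Between TSA and HMBA 7 to 11 members were called, and between TSA and DMSO 18 to 24. The clones called numbered 342 to 466 and 113 to 230. These fits could test 86 to 94 of the members, so members not tested may be part of the lower counts. Without 1 chemical at a time the counts were 0 to 2 at 1 h, 13 to 45 at 12 h and 2 to 24 at 24 h. The same fits called 0 to 25, 480 to 1041 and 232 to 1014 of 14582 clones. Without 1 time at a time the member counts were 1 to 36 for TSA and HMBA and 0 to 48 for TSA and DMSO. For HMBA and DMSO they were 0 to 2. The clones called numbered 30 to 856, 0 to 631 and 0 to 151. These fits have fewer conditions and fewer residual degrees of freedom. Counts between chemicals over 5 times contain the values that chose the members. In the fit without 6 h and 36 h, 1 member was called at 1 h, 26 at 12 h and 9 at 24 h. Between TSA and HMBA it called 1 member, and between TSA and DMSO 0. Of 14582 clones it called 13, 1302, 853, 1 and 0 in that order.

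With arrays scaled to the same spread the counts were 10 for TSA and HMBA, 38 for TSA and DMSO and 2 for HMBA and DMSO. Of 14582 clones 364, 784 and 114 were called in that order. With plate-row medians removed, 3 members and 328 clones were called for HMBA and DMSO. Without the HMBA 1 h condition, 1 member and 15 clones were called at 1 h. The other tests without it, added after seeing the data, gave 32 at 12 h and 12 at 24 h, against 2107 and 1294 clones. They gave 18 for TSA and HMBA and 25 for TSA and DMSO, against 738 and 353 clones. The deposited ratios gave 41 at 12 h, 13 at 24 h, 19 for TSA and HMBA and 27 for TSA and DMSO. Of 14535 clones they called 2215, 1281, 673 and 474. The causes of these shifts were not tested. The 24 h and 12 h contrast had 0 calls under each alternative that was run.

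The members' median difference of 36 h over 6 h, 0.930, was 0.704 and 0.871 when chosen on 1 dye and read on the other, 0.782 with plate-row medians removed, 1.29 for the 50 highest ranked and 0.696 for the 200 highest ranked clones. On the normalized ratios the rule kept 88 of the 100 members.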
